A study of Mus musculus with 3 samples.

Results

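The gene set described here comprised 9 of the 32285 mouse genes counted in a spatial transcriptome (Visium) experiment on the infarcted heart: the tissue inhibitors of metalloproteinases Timp1, Timp2, Timp3 and Timp4, the matrix metalloproteinases Mmp2, Mmp3 and Mmp14, and the secreted proteases Adamts1 and Adamts4. The members were chosen by their symbols, and each symbol matched 1 gene in every section. The measurements came from 3 sections of mouse heart, named sham, I/R and SBP, with 1 mouse each. The mice were C57BL/6 and 8 weeks old. The sham mouse received vehicle by gavage for 7 days and had a needle passed under the left anterior descending coronary artery without ligation. The I/R mouse received the same vehicle for 7 days, then ligation of that artery for 30 min and reperfusion for 24 h. The SBP mouse received Shexiang Baoxin Pill (SBP, also named MUSKARDIA), a traditional Chinese medicine given for coronary heart disease, by gavage for 7 days before the same ligation and reperfusion. No condition had a second section, so no value below has a replicate check, and no test across animals was possible.

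Matrix metalloproteinases are zinc-dependent enzymes that cleave collagens, proteoglycans and other proteins of the extracellular matrix, and most are secreted as inactive precursors. The TIMP proteins bind the active enzymes and block them, so the balance of inhibitor and protease transcripts is a common readout of matrix turnover in the heart after infarction. ADAMTS proteases are related secreted enzymes that cut large proteoglycans such as versican and aggrecan. In the heart, Timp1 is known as an inducible inhibitor, Timp2 also takes part in activating pro-MMP2 at the cell surface together with MMP14, Timp3 stays bound to the matrix, and Timp4 is known for its high expression in normal myocardium.

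The sections held 2234 (sham), 2082 (I/R) and 1960 (SBP) spots over tissue and 25118258, 30238530 and 21631280 unique molecular identifiers (UMIs), not counting spots in which under 200 genes were detected. They had a median of 10645, 14672 and 10653 UMIs per spot. Mitochondrial transcripts took 48.6%, 44.3% and 46.3% of all UMIs. A level below is the UMIs of a gene summed over spots scaled to 1000000 UMIs of the same spots (counts per 1000000, CPM), and its 95% interval covers counting error only. UMIs come from the 3′ ends of transcripts and were not divided by gene length. A spot covers several cells, so fewer cells of a type and less RNA per cell cannot be told apart. The spots of different sections share array barcodes (1091 barcodes occurred in all 3 sections), as the slides carry the same barcode set, and UMIs at shared barcodes were close to unrelated (Spearman's rho 0.03 to 0.07). Cardiomyocyte markers were abundant in every section (5 of 5 genes with UMIs, summed 15794 to 20062 CPM), and epicardial markers were near 0 (1.75 to 2.35 CPM, with Msln and Upk3b at 0 in sham).

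The members lie on 9 different chromosomes of GRCm38. Timp1 (ENSMUSG00000001131) is at chrX:20870166-20874735 on the plus strand, Timp2 (ENSMUSG00000017466) at chr11:118301069-118355740 on the minus strand, Timp3 (ENSMUSG00000020044) at chr10:86300372-86349506 on the plus strand and Timp4 (ENSMUSG00000030317) at chr6:115241892-115252205 on the minus strand. Of the inhibitor genes, 3 lie inside a synapsin gene on the opposite strand, namely Timp1 inside Syn1, Timp3 inside Syn3 and Timp4 inside Syn2. The synapsin genes stayed at or below 1.59 CPM in every section, far under the inhibitor inside them. Mmp2 is at chr8:92827291-92853420, Mmp3 at chr9:7445822-7455975, Mmp14 at chr14:54431612-54445364, Adamts1 at chr16:85793827-85803113 and Adamts4 at chr1:171250421-171260637.

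Among the inhibitors, Timp1 was highest in I/R, while Timp3 and Timp4 were lowest there. Timp1 was at 68.2 CPM (95% interval 65.0 to 71.5) in sham, 329 CPM (322 to 335) in I/R and 188 CPM (182 to 194) in SBP. The sections did not overlap in these intervals, and the SBP section lay between the other two. Timp3, the matrix-bound inhibitor, was at 66.0 CPM (62.9 to 69.3) in sham, 46.5 CPM (44.1 to 49.0) in I/R and 82.6 CPM (78.8 to 86.5) in SBP. Here I/R was lowest and SBP highest, again without overlap of the intervals. Timp4, the inhibitor typical of myocardium, was at 14.9 CPM (13.4 to 16.5) in sham, 9.66 CPM (8.58 to 10.8) in I/R and 16.8 CPM (15.1 to 18.6) in SBP. I/R was lowest, and the intervals of sham and SBP overlapped. Timp2, the most even of the 4, was at 74.2 CPM (70.8 to 77.6) in sham, 59.8 CPM (57.1 to 62.6) in I/R and 60.3 CPM (57.1 to 63.6) in SBP, so that I/R and SBP did not differ beyond counting error.

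By UMIs, the matrix metalloproteinases were below the 3 abundant inhibitors in each section. Mmp2 (gelatinase A), which cleaves denatured collagen and basement membrane, was at 37.6 CPM (35.2 to 40.1) in sham, 28.3 CPM (26.4 to 30.3) in I/R and 31.3 CPM (29.0 to 33.8) in SBP. Sham was highest, and the I/R and SBP intervals overlapped. Mmp3 (stromelysin 1), which degrades proteoglycans and activates other metalloproteinases, was at 23.7 CPM (21.9 to 25.7) in sham, 26.2 CPM (24.4 to 28.1) in I/R and 19.4 CPM (17.6 to 21.3) in SBP. Only the SBP interval lay apart from the other two. Mmp14 (MT1-MMP), the membrane-anchored collagenase, was at 4.22 CPM (3.46 to 5.10) in sham, 5.95 CPM (5.11 to 6.89) in I/R and 2.96 CPM (2.28 to 3.78) in SBP, on 106, 180 and 64 UMIs. I/R was highest, and the sham and SBP intervals overlapped.

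Adamts1, a proteoglycan-cleaving protease, was at 17.9 CPM (16.3 to 19.6) in sham, 30.0 CPM (28.0 to 32.0) in I/R and 22.1 CPM (20.2 to 24.2) in SBP, without overlap between any pair of sections. Adamts4 (aggrecanase 1) was the rarest member, with 10 UMIs in sham (0.40 CPM), 71 in I/R (2.35 CPM) and 6 in SBP (0.28 CPM). Its I/R interval of 1.83 to 2.96 CPM lay above those of sham (0.19 to 0.73) and SBP (0.10 to 0.60), which overlapped. In sham the order of the members by UMIs was Timp2, Timp1, Timp3, Mmp2, Mmp3, Adamts1, Timp4, Mmp14 and Adamts4, where the intervals of Timp1 overlapped those of its neighbours Timp2 and Timp3, and those of Adamts1 and Timp4 overlapped each other.

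**Figure D1:**
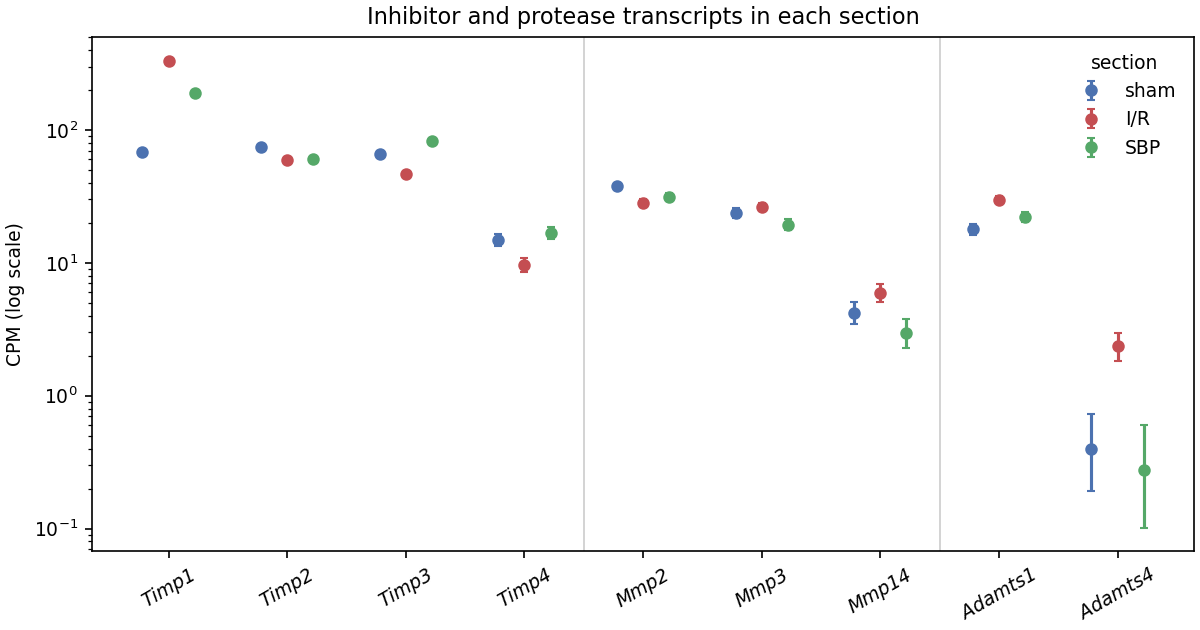
Level of each member in CPM (log axis) in the sham, I/R and SBP sections; points are 1 section each and bars are 95% Poisson intervals for counting error only. Timp1 stands at 329 in I/R against 68.2 in sham, while Timp3 and Timp4 are lowest in I/R.

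The first comparison asked which members differed in the injured heart from the sham heart. In I/R over sham, 2 of 9 members were at least 2-fold higher (Timp1 and Adamts4) and 0 were at least 2-fold lower, beside 8.38% of all 12231 genes with at least 50 UMIs that were higher by that fold and 0.523% that were lower. The median log2 ratio of the members was 0.14, beside 0.24 for all genes tested. Timp1 was 4.82-fold higher in I/R (log2 ratio 2.27, 95% interval 2.19 to 2.34) and ranked 117 from the highest of 12231 genes. Adamts4 had a log2 ratio of 2.56 with a wide interval of 1.60 to 3.68, as it rests on 10 sham UMIs. Adamts1 followed at 0.75 (0.58 to 0.91) and Mmp14 at 0.50 (0.14 to 0.86). The other inhibitors were lower in I/R, Timp4 by a log2 ratio of -0.62 (-0.85 to -0.40), Timp3 by -0.51 (-0.61 to -0.40) and Timp2 by -0.31 (-0.41 to -0.22). Mmp2 was lower too, at -0.41 (-0.54 to -0.27). Mmp3 did not differ beyond counting error at 0.14 (-0.01 to 0.30), and its sign turned under factors scaled on most genes (-0.09 by TMM). Relative to the median of all genes, Timp2, Timp3, Timp4 and Mmp2 lay further below the rest of the transcriptome than their ratios to sham show. With TMM factors, which bring the median of all genes to 0.01, 645 genes were at least 2-fold higher and 181 lower, against 1025 and 64 without them, and Timp1 was at 2.04.

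The second comparison asked which members differed after SBP pretreatment in the reperfused heart, and it shares the I/R section with the first. In SBP over I/R, 0 of 9 members were at least 2-fold higher, beside 0.337% of 12151 genes, and 2 were at least 2-fold lower (Mmp14 and Adamts4), beside 4.53%. The median of the members was -0.44, beside -0.17 for all genes tested. Adamts4 was lowest at -3.08 (-4.58 to -1.89), on 6 against 71 UMIs. Mmp14 was at -1.01 (-1.44 to -0.59), a value so near the 2-fold limit that it missed it with TMM factors (-0.85), with median-of-ratios factors (-0.88) and without mitochondrial UMIs (-0.96). Timp1 was at -0.81 (-0.86 to -0.75), Mmp3 at -0.44 (-0.61 to -0.26) and Adamts1 at -0.44 (-0.60 to -0.28). Timp3 and Timp4 lay on the other side. Timp3 was 1.78-fold higher in SBP (log2 ratio 0.83, 0.73 to 0.93) and ranked 88 of 12151 genes, and Timp4 was at 0.80 (0.57 to 1.02), rank 95. Timp2 (0.01, -0.09 to 0.12) and Mmp2 (0.15, 0.00 to 0.29) did not differ beyond counting error. Among all genes, 41 were at least 2-fold higher and 551 lower, and 85 and 374 with TMM factors.

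In SBP over sham, 8 members had at least 50 UMIs, and 1 of them (Timp1, log2 ratio 1.46, 1.38 to 1.55) was at least 2-fold higher, beside 1.48% of 11768 genes, with 0 lower, beside 0.731%. The members' median was -0.04 and that of all genes 0.08. Timp3 (0.32, 0.23 to 0.42) and Adamts1 (0.31, 0.12 to 0.49) were higher in SBP, and Mmp14 (-0.51, -0.98 to -0.05), Timp2 (-0.30, -0.40 to -0.20), Mmp3 (-0.29, -0.48 to -0.11) and Mmp2 (-0.26, -0.41 to -0.12) were lower. Timp4 did not differ beyond counting error (0.17, -0.04 to 0.38). This comparison shares a section with each of the other two. Over all genes, 174 were at least 2-fold higher and 86 lower, and 135 and 104 with TMM factors.

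**Figure D2:**
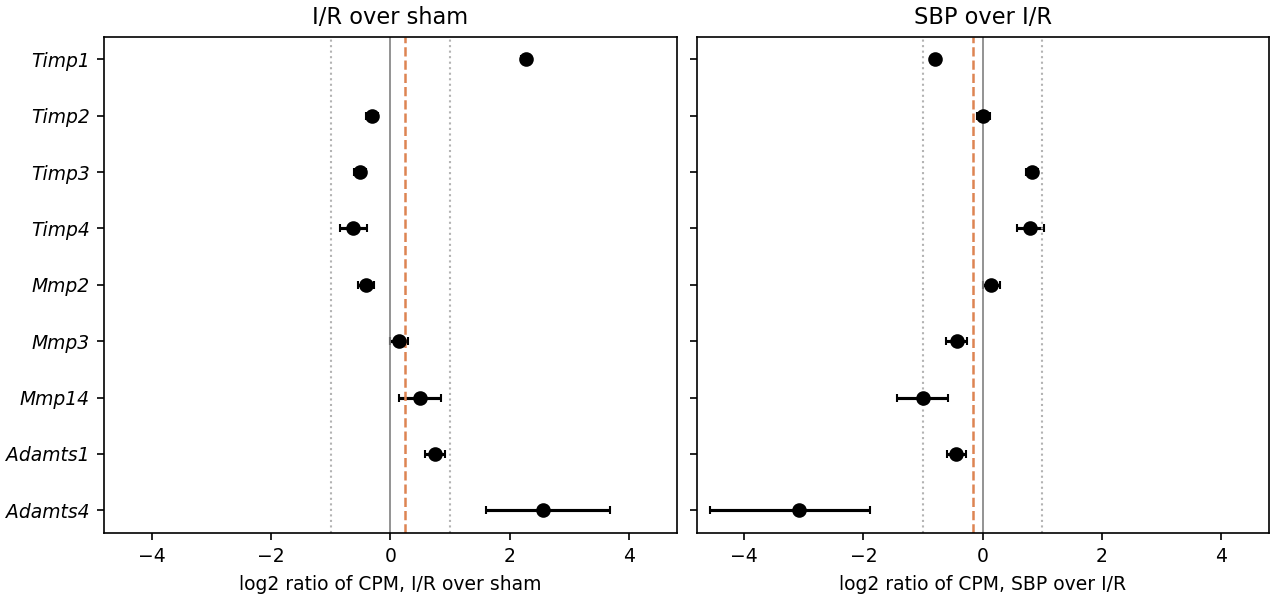
Log2 ratio of the CPM of each member, I/R over sham (left) and SBP over I/R (right), with 95% intervals for counting error; dotted lines mark 2-fold and the orange dashed line is the median of all genes tested (0.24 and -0.17). Timp1 is at 2.27 and -0.81, and Timp3 at -0.51 and 0.83.

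Markers of other cells moved between the same sections. The summed level of the 4 neutrophil markers was 27.2 CPM in sham, 236 in I/R, with 115 in SBP, and that of the 4 monocyte markers 21.5, 80.1 and 37.1, each with all 4 genes detected. The 5 macrophage markers summed to 313, 393 and 305 CPM, the 5 fibroblast markers to 1422, 1048 and 1358, and the 5 cardiomyocyte markers to 20062, 15794 and 17312. Timp1 and Adamts1 were lowest in sham, intermediate in SBP and highest in I/R, as the neutrophil and monocyte lists were. The medians of all genes tested went the same way (0.24 in I/R over sham, -0.17 in SBP over I/R and 0.08 in SBP over sham), so this order is not particular to those lists. Timp3 and Timp4 were lowest in I/R, as the summed fibroblast and cardiomyocyte lists were. The smooth muscle and pericyte sum was lowest there too (357, 290 and 306 CPM). Each of these sums was highest in sham, while Timp3 was highest in SBP. Not every gene of these lists followed its sum. In sham, I/R and SBP, Pdgfra was at 14.7, 33.8 and 23.8 CPM and Col1a2 at 194, 203 and 146, while Dcn, Fbln1 and Gsn were lowest in I/R. Of the cardiomyocyte list, Actc1 was lowest in SBP (6678, 5212 and 4872 CPM). Of the smooth muscle and pericyte list, only Rgs5 was lowest in I/R (233, 153 and 197 CPM). Myh11, Tagln and Notch3 were lowest in SBP, and Cspg4 and Pdgfrb in sham. The part of these cell types in the members' differences was not tested.

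Set against each other, the 4 inhibitors changed their proportions, a measure that does not depend on how libraries are scaled. In sham the Timp UMIs were split almost evenly between Timp2 (33.2%), Timp1 (30.6%, exact binomial 95% interval 29.4 to 31.8) and Timp3 (29.6%), with 6.67% from Timp4. In I/R Timp1 made up 73.9% (73.2 to 74.7), Timp2 13.4%, Timp3 10.4% and Timp4 2.17%. In SBP Timp1 made up 54.1% (53.0 to 55.2), Timp3 23.7%, Timp2 17.3% and Timp4 4.82%. The order of Timp2 and Timp3 thus differed between I/R and SBP. The sum of the 4 inhibitors was 223 CPM in sham, 445 in I/R, with 348 in SBP. Per UMI of the 5 proteases in the set there were 2.66 inhibitor UMIs in sham, 4.79 in I/R, with 4.57 in SBP, a ratio of transcripts that says nothing about enzyme activity. Timp1 was the only inhibitor higher in I/R than in sham, so the higher ratio of I/R rests on Timp1. Proteases outside the set were not counted in it, among them Mmp15 (34.1 CPM in I/R) and Mmp9 (26.2 CPM in I/R).

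The study used Ankrd1, a stress-induced muscle protein gene, to mark the infarct area, and the members were compared between spots above and below the 95th percentile of Ankrd1 in sham, 27.0 Ankrd1 UMIs per 10000. Above it lay 112 of 2234 spots in sham (5.01%), 479 of 2082 in I/R (23.0%) and 326 of 1960 in SBP (16.6%), here called Ankrd1-high. These spots were deeper than the others (median 14927 against 10502 UMIs in sham, 17348 against 14103 in I/R, 11990 against 10453 in SBP), and CPM divides by depth. The mitochondrial share was lower in them (45.2% against 48.9%, 40.6% against 45.7%, 43.9% against 46.9%).

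Timp1 was higher in Ankrd1-high spots of every section. It was at 307 against 49.3 CPM in sham (log2 ratio 2.64, 2.49 to 2.78), 519 against 259 CPM in I/R (1.004, 0.95 to 1.06) and 405 against 140 CPM in SBP (1.53, 1.44 to 1.62). In sham it ranked 10 from the highest of 10642 genes, in SBP 42 of 10469 and in I/R 237 of 11408. The I/R value sits at the 2-fold limit and was 0.87 without mitochondrial UMIs. The Ankrd1-high spots held 33.0% of the Timp1 UMIs in sham, 42.6% in I/R, with 39.0% in SBP, while they held 7.35%, 27.0% and 18.1% of all UMIs. Spots were then thinned to 6500 UMIs each, which left out 132 shallower spots of sham, 202 of I/R and 213 of SBP. After that, 73.4% of 109 Ankrd1-high spots in sham had a Timp1 UMI (64.1 to 81.4) against 17.1% of 1993 others, with 87.2% against 40.2% in I/R and 82.8% against 34.9% in SBP.

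Mmp3 was the other member that was higher in Ankrd1-high spots of each section with an interval above 0. It was at 80.2 against 19.2 CPM in sham (log2 ratio 2.06, 1.78 to 2.33), 40.1 against 21.03 CPM in I/R (0.93, 0.72 to 1.14) and 30.6 against 16.9 CPM in SBP (0.86, 0.54 to 1.17). Within Ankrd1-high spots the sham section thus had the highest Mmp3 level of the 3, although over whole sections sham and I/R did not differ in Mmp3 beyond counting error. Mmp3 was unevenly spread in sham, with up to 37 UMIs in 1 spot and 28.2% of its UMIs in 1% of all spots. The intervals do not cover such clumping. Of the thinned Ankrd1-high spots, 35.8% in sham had an Mmp3 UMI, 18.1% in I/R and 14.9% in SBP. Mmp14 was at 11.4 against 3.65 CPM in sham (1.64, 0.88 to 2.34), on 21 UMIs in Ankrd1-high spots, and at the sham 99th percentile of Ankrd1 that ratio was -0.06. In I/R (0.29, -0.20 to 0.75) and SBP (0.71, -0.18 to 1.54) the Mmp14 intervals included 0. Adamts1 was higher in I/R (0.37, 0.16 to 0.57), beside a median of 0.24 for all genes tested there, and ranked 3906 of 11408. The Adamts1 intervals included 0 in sham (-0.20, -0.80 to 0.34) and SBP (0.20, -0.13 to 0.53).

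Timp4 was lower in Ankrd1-high spots. It was at 7.05 against 15.5 CPM in sham (log2 ratio -1.14, -2.06 to -0.35), 4.04 against 11.7 CPM in I/R (-1.54, -2.11 to -1.01) and 9.44 against 18.4 CPM in SBP (-0.96, -1.50 to -0.47), on 13, 33 and 37 UMIs. Timp3 was also lower, at -0.34 (-0.65 to -0.04), -0.24 (-0.42 to -0.06) and -0.45 (-0.65 to -0.26). Mmp2 was lower in I/R (-0.61, -0.86 to -0.37) and SBP (-0.42, -0.75 to -0.11), and its sham interval included 0 (-0.28, -0.69 to 0.11). Timp2 did not differ beyond counting error in sham (-0.06), I/R (-0.02) or SBP (-0.18). Adamts4 had 2 of 10 UMIs in Ankrd1-high spots in sham, 18 of 71 in I/R and 0 of 6 in SBP, where 0 UMIs allow a level of up to 0.77 CPM (3 UMIs in those spots).

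In counts, 3 of the 8 members tested in sham were at least 2-fold higher in Ankrd1-high spots (Timp1, Mmp3 and Mmp14), beside 8.96% of all genes tested, and 1 was lower (Timp4), beside 2.52%. In I/R 1 of 9 was higher (Timp1), beside 2.13%, and 1 lower (Timp4), beside 1.24%. In SBP 1 of 8 was higher (Timp1), beside 2.94%, and 0 were lower, beside 1.65%. The medians of the members tested were -0.13, -0.02 and 0.01, and those of all genes 0.31, 0.24 and 0.21. Without mitochondrial UMIs the genes higher and lower by that fold changed from 243 and 141 to 139 and 191 in I/R, and from 308 and 173 to 236 and 208 in SBP.

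The sequences before the start sites of Timp1 and Mmp3, which were higher in Ankrd1-high spots of each section, and of Timp4, which had the lowest ratio of the members tested in each, are shown to set the 3 promoters side by side. They are the 250 bases before the start in RefSeq (GRCm38.p6), on the gene's own strand, from chrX:20869916-20870165 (plus) for Timp1, chr9:7445572-7445821 (plus) for Mmp3 and chr6:115252206-115252455 (minus) for Timp4. Capitals mark matches, on either strand, to the AP-1 motif TGANTCA, the TATA box TATAAA, the TEAD motif CATTCC and the GC box GGGCGG.
Timp1: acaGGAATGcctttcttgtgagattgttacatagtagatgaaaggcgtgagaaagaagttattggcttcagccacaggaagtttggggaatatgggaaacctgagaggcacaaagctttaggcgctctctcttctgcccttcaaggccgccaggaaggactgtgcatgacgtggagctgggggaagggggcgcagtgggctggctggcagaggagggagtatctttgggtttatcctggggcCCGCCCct
Mmp3: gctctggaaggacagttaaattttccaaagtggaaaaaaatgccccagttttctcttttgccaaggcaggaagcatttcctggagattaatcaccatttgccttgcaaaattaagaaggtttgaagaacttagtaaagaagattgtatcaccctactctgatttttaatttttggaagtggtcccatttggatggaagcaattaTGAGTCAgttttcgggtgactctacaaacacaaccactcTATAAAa
Timp4: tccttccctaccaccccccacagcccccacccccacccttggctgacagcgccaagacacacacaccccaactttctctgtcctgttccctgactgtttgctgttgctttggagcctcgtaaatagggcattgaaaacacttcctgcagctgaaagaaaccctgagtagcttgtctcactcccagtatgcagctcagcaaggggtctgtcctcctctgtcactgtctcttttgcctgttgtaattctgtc

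The Mmp3 window held 1 match to the AP-1 letters, which begins 46 bases before the annotated start, and 1 match to the TATA box letters, which begins 7 bases before it. The Timp1 window held 1 match to the TEAD letters and 1 GC box, and the Timp4 window held a match to none of the 4 motifs. Of all 32851 promoters in the table, 6.75% held the AP-1 letters in these 250 bases, 12.4% the TATA box, 12.6% the TEAD letters and 32.7% the GC box. Of the 7 members with an entry (Mmp2 and Adamts4 were not matched), Mmp3 alone held the AP-1 letters and Timp1 alone the TEAD letters. These are matches of letters in a short window and not measured binding sites.

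Across finer bins of Ankrd1, set at the 50th, 75th and 95th percentiles of sham, Timp1 was higher in each bin than in the one below it in every section. In sham the 4 bins were at 18.4, 34.4, 133 and 307 CPM, in I/R at 79.3, 184, 488 and 519, and in SBP at 31.5, 107, 291 and 405. The step between the last 2 bins was smallest in I/R, where spots just under the Ankrd1 threshold already carried about as much Timp1 as those over it. Even in the bin with the least Ankrd1, Timp1 was higher in I/R than in SBP and in SBP than in sham. Timp4 went from 17.6 to 7.05 CPM from the first to the last bin in sham, from 15.4 to 4.04 in I/R, with 23.3 to 9.44 CPM in SBP. Mmp3 went from 7.91 to 80.2 in sham, from 11.5 to 40.1 in I/R, with 5.74 to 30.6 CPM in SBP. Timp3 showed no such gradient below the top bin, with 46.8, 47.6, 50.8 and 41.0 CPM in I/R.

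**Figure D3:**
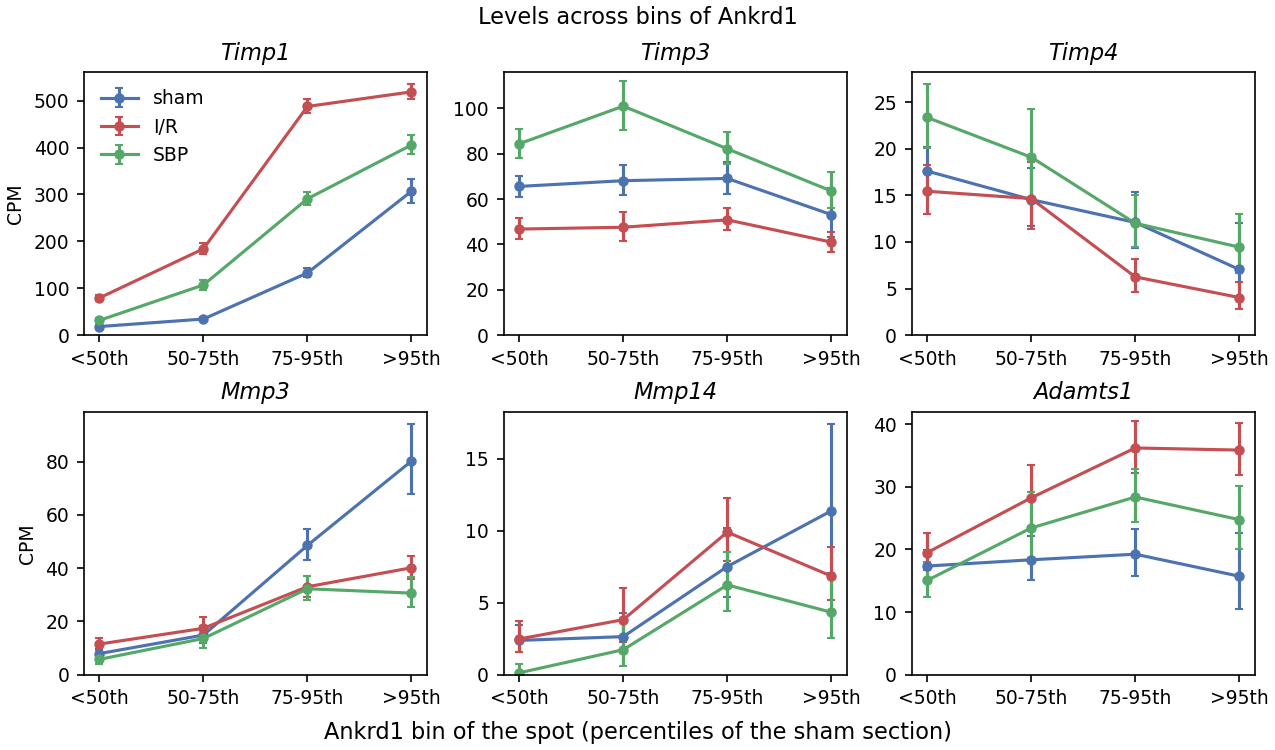
CPM of 6 members (vertical axes start at 0) in spots grouped by Ankrd1, with bins at the 50th, 75th and 95th percentiles of the sham section; lines are sections and bars 95% Poisson intervals. Timp1 is higher in each further bin of every section, and Timp4 goes from 15.4 to 4.04 in I/R.

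Compared between sections within one Ankrd1 class of spots, Timp1 differed less in Ankrd1-high spots than elsewhere. The class was not made up alike in each section. Of its spots, 25 of 112 in sham were also high for the list of injury genes described below. In I/R it was 299 of 479 and in SBP 95 of 326. The ratios and weighted ratios that follow can thus set unlike tissue side by side. In I/R over sham its log2 ratio was 0.76 (0.63 to 0.89) in Ankrd1-high spots and 2.39 (2.30 to 2.48) in other spots, and these intervals did not overlap. In SBP over I/R it was -0.36 (-0.44 to -0.27) in Ankrd1-high spots and -0.88 (-0.95 to -0.82) in others. When the I/R section was weighted to hold the sham share of UMIs in Ankrd1-high spots, its Timp1 ratio to sham was 2.02 in place of 2.27, and with the I/R share the SBP ratio to I/R was -0.63 in place of -0.81. Mmp3 was lower in Ankrd1-high spots of I/R than in those of sham (-0.999, -1.28 to -0.71), with 0.13 (-0.06 to 0.32) in other spots. Adamts1 was higher in I/R in both kinds of spots, by 1.19 (0.64 to 1.79) and 0.62 (0.44 to 0.80). Timp3 was higher in SBP than in I/R by 0.63 (0.39 to 0.87) in Ankrd1-high spots and 0.84 (0.73 to 0.95) in others, and Timp4 by 1.23 (0.51 to 1.95) and 0.65 (0.41 to 0.89).

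The composition of the Timp UMIs was closer between sections in Ankrd1-high spots. Timp1 made up 70.0% there in sham (66.7 to 73.1), 83.3% in I/R (82.2 to 84.3), with 76.1% in SBP (74.2 to 77.9). In other spots it made up 23.9% (22.7 to 25.1), 68.3% (67.3 to 69.3) and 45.7% (44.3 to 47.0). For the genes of this set, the inhibitor UMIs per protease UMI were 3.14, 5.90 and 6.33 in Ankrd1-high spots and 2.60, 4.30 and 4.13 in other spots.

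**Figure D4:**
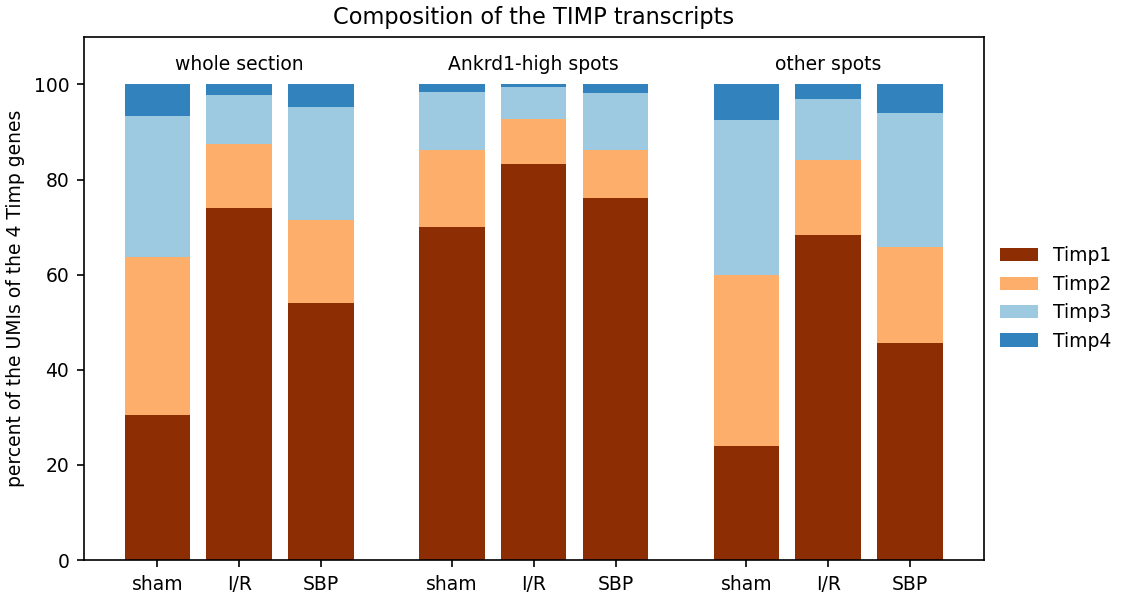
Share of the UMIs of the 4 Timp genes held by each, in percent, for whole sections, Ankrd1-high spots and other spots of sham, I/R and SBP. Timp1 (dark) is 30.6% of the sham bar and 73.9% of the I/R bar, and 83.3% in Ankrd1-high spots of I/R.

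Spots were also marked by a list of 9 genes of injured tissue that holds no member (Lgals3, S100a6, Anxa2, Tmsb10, Vim, Cd44, Tnc, Spp1 and Fn1). By the same cut at the sham 95th percentile, 112 spots of sham, 754 of I/R and 299 of SBP were high for it. These spots overlapped in part with the Ankrd1-high ones, which held 25 of them in sham and 95 in SBP. In I/R 299 of the 754 were Ankrd1-high and 455 were not. Those 455 spots had the highest Timp1 level of I/R, 1009 CPM (980 to 1039), above the 672 (649 to 696) of the 299 spots high for both. Spots high for Ankrd1 alone were at 305 CPM (286 to 324) and the remaining 1148 spots at 61.6 (57.9 to 65.4). In SBP the same 4 levels were 742, 578, 344 and 72.1 CPM, and in sham 432, 599, 221 and 32.8. In I/R and SBP, then, the denominator of the Ankrd1 comparison contained the spots richest in Timp1.

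Mmp14, Adamts1 and Adamts4 had their highest I/R levels in the same 455 spots. Mmp14 was at 20.1 CPM there (16.2 to 24.6), against 8.61 in spots high for both, 4.40 in spots high for Ankrd1 alone and 1.83 in the remaining spots. Adamts1 was at 67.8 (60.5 to 75.7), against 45.6, 22.3 and 17.3, and Adamts4 at 9.37 (6.78 to 12.6), against 2.94, 1.17 and 0.57. Mmp3 did not separate these classes so clearly, with 48.2, 37.8, 43.4 and 13.9 CPM. Timp4 was at 2.62 CPM in them (1.35 to 4.57), 3.36 (1.92 to 5.46) in spots high for both and 4.98 (2.90 to 7.98) in spots high for Ankrd1 alone, with intervals that overlapped, and at 14.1 (12.4 to 16.01) in the remaining spots.

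Over all spots high for the injury list, the log2 ratio to the others was 3.45 in sham, 3.05 in I/R, with 2.58 in SBP for Timp1, and 2.55, 2.66 and 2.55 for Mmp14. Adamts1 was at 1.51, 1.64 and 1.29, and Timp2 at 1.09, 0.87 and 0.83, although Timp2 had shown no difference by Ankrd1. Most genes were higher in these spots: the medians of all genes tested were 0.73, 0.87 and 0.58. Past 2-fold in either direction were 36.9%, 46.0% and 26.2% of all genes. Timp2 in I/R was thus at the level of the median gene. Timp3 was at 0.49 (0.21 to 0.75), 0.21 (0.05 to 0.37) and -0.07 (-0.28 to 0.13), below those medians in each section. Its sign by the injury list was not the one by Ankrd1 in sham and I/R. Timp4 was at -0.69, -2.08 and -1.295, with the sham interval reaching 0.10. The injury list itself summed to 885 CPM in sham, 2550 in I/R, with 1311 in SBP.

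Spots rich in markers of a cell type, again above the sham 95th percentile, were compared with the other spots of the same section. The ratios of all genes were not summarized for these cell type lists. Whether a member differed there from the typical gene was thus not tested. In the 112 fibroblast-rich spots of sham, 47 of I/R and 108 of SBP, Mmp2 was higher than elsewhere by log2 ratios of 1.53, 2.08 and 1.96, Timp2 by 1.63, 1.74 and 1.47, and Timp3 by 1.02, 1.07 and 0.85, each with an interval above 0. Mmp3 was higher there in sham (1.75, 1.43 to 2.06) and I/R (2.18, 1.84 to 2.51) and not in SBP (-0.18, -0.84 to 0.42). Timp1 was higher there by 0.61, 0.80 and 0.21. Adamts1 was higher there by 1.24, 0.98 and 0.95. In spots rich in smooth muscle and pericyte markers, Timp2 (1.33, 1.18 and 1.08) and Timp3 (1.16, 1.21 and 1.03) were higher in each section with intervals above 0. So were Mmp2 (1.09, 1.44 and 0.71) and Adamts1 (1.07, 1.47 and 1.86). Timp1 was higher there in I/R (1.40) and SBP (1.49), and Mmp3 in sham (0.96) and I/R (1.99).

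Timp1, Mmp14 and, in I/R, Adamts4 were higher in neutrophil-, macrophage- and injury-rich spots. The neutrophil cut was low, at 1.21 marker UMIs per 10000, so a few such UMIs place a spot above it. In neutrophil-rich spots (112, 706 and 342 of the 3 sections) Timp1 was higher by 2.79, 2.48 and 1.77, and Mmp14 by 2.70, 2.36 and 2.74. Mmp3 (1.88, 1.12 and 1.01) and Adamts1 (0.88, 1.63 and 0.72) were also higher there in each section. By the injury list the median of all genes was itself 0.73, 0.87 and 0.58. No such median was taken for the neutrophil, macrophage and endothelium lists. Whether ratios of about that size are particular to the members was not tested. Adamts4 in I/R had 55 of its 71 UMIs in the 706 neutrophil-rich spots (3.14, 2.31 to 4.04). In SBP all 6 of its UMIs lay in such spots. In macrophage-rich spots Timp1 was higher by 2.36, 1.73 and 1.25, and Mmp14 by 2.03, 2.55 and 1.78, and Timp2 (1.18, 1.098 and 0.98), Mmp3 (0.87, 0.64 and 0.62) and Adamts1 (0.70, 1.40 and 0.98) were higher there too. Timp4 was lower in neutrophil-rich spots of I/R (-1.77, -2.37 to -1.22) and SBP (-0.63, -1.15 to -0.14), and it was higher in endothelium-rich spots of sham (1.27, 0.75 to 1.75) and SBP (0.78, 0.05 to 1.43). Endothelium-rich spots of I/R were higher in Timp1 (1.10), Timp2 (0.67), Mmp3 (0.51), Mmp14 (1.49), Adamts1 (1.31) and Adamts4 (1.55), each with an interval above 0. In sham and SBP the intervals of these members in endothelium-rich spots included 0. Mmp14 was also higher in smooth muscle- and pericyte-rich spots of I/R (1.84, 1.09 to 2.52). These lists name kinds of spots and not the cells that hold a transcript, which spots of several cells cannot give.

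**Figure D5:**
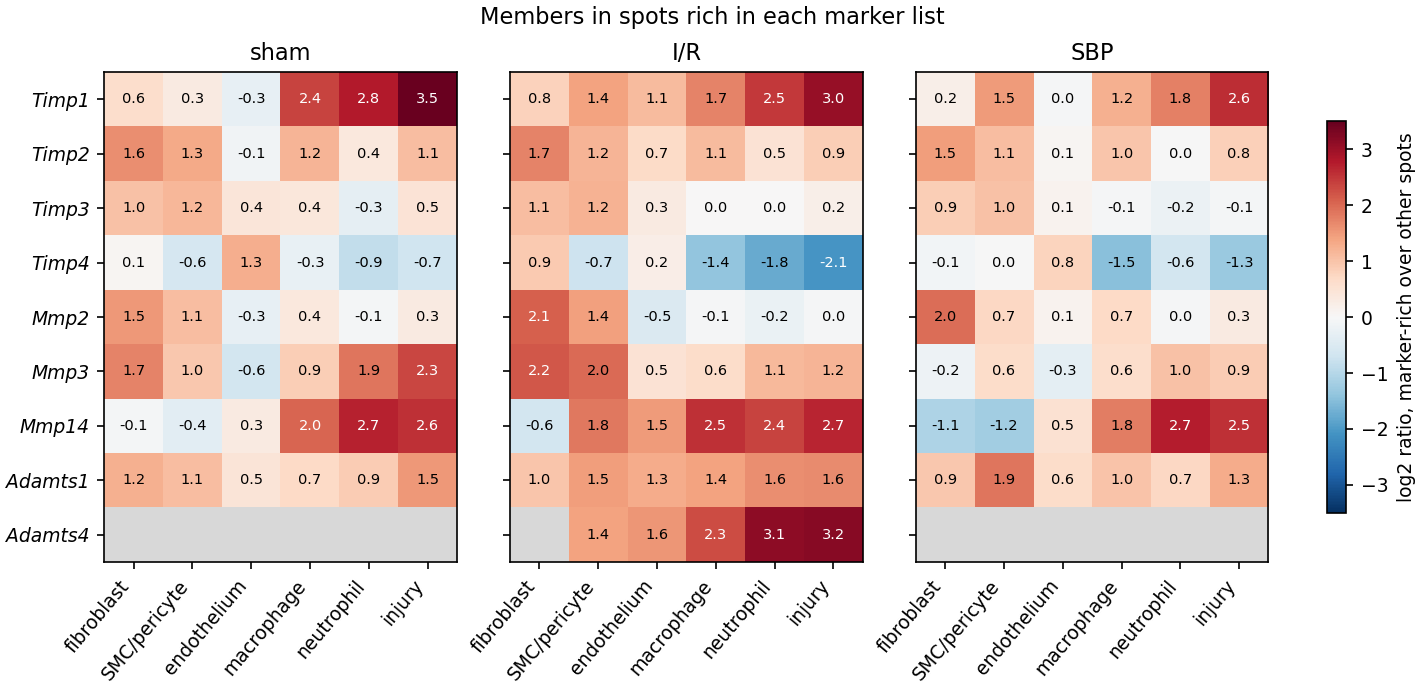
Log2 ratio of each member's CPM in spots above the sham 95th percentile of a marker list over the other spots of the same section; grey marks members with fewer than 50 UMIs in the section or no UMI in the rich spots. Timp1 has its highest value in each section by the injury list, Mmp2 and Timp2 have theirs by the fibroblast list, and Timp4 is at -2.1 by the injury list in I/R.

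Spot to spot, the correlations between members were low, and sparse counts limit how high they can be. Of the thinned I/R spots, 3.78% had an Mmp14 UMI, 11.2% an Mmp3 UMI and 16.8% an Adamts1 UMI. These values thus do not show how closely the members are related. Over 1880 I/R spots thinned to 6500 UMIs, the Pearson correlation of log2(UMIs + 1) was 0.25 for Timp1 with Adamts1, 0.21 with Mmp14, 0.20 with Mmp3 and 0.14 with Timp2. With Ankrd1, Timp1 had 0.42 in sham, 0.54 in SBP and 0.52 in I/R. Among genes with at least 500 UMIs in I/R, the 5 most like Timp1 were Actb (0.73), Rplp1 (0.71), Rpsa (0.69), Rpl41 (0.69) and Eef1a1 (0.69), which encode beta-actin, ribosomal proteins and a translation factor. In SBP the correlations of these genes with Timp1 were 0.47 to 0.52 and in sham 0.29 to 0.41. The 5 genes were abundant in I/R (1179 to 2422 CPM). Sparse counts limit abundant genes less, so abundance as well as likeness enters this ranking. The highest value for Timp4 (Fabp3, 0.12) was too weak to name a likeness. The points are spots of 1 library that share their tissue and neighbours, so these values are descriptions.

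The largest number of Timp1 UMIs in a single spot was 38 in sham, 84 in I/R, with 87 in SBP, and the 1% of spots with the most Timp1 held 21.6%, 9.96% and 15.5% of its UMIs. In the 2102, 1880 and 1747 spots thinned to equal depth, 20.0% of spots had a Timp1 UMI in sham (18.3 to 21.8), 51.4% in I/R (49.1 to 53.7), with 43.0% in SBP (40.7 to 45.4), against 32.7%, 25.0% and 39.8% for Timp3. Of the 9 members, Timp1 was thus found in the largest share of thinned spots in I/R and SBP, and not in sham. In SBP its interval overlapped that of Timp3 (37.5 to 42.2). Without thinning, Timp3 was found in 54.2% of SBP spots and Timp1 in 53.9%.

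Of 62 other genes of the matrix protease network (further Mmp, Adam and Adamts genes, the plasminogen system, and matrix substrates), 44 had at least 50 UMIs in I/R over sham. Of these, 11 were at least 2-fold higher and 0 lower, with a median of 0.50. Fn1, which is among the 11, is also in the injury list. Among them were Mmp8, the neutrophil collagenase (log2 ratio 2.71, on 63 against 8 UMIs), Adam8 (2.69), Mmp9, gelatinase B (2.54), and Adam12 (2.45). Mmp9 was at 4.50 CPM in sham, 26.2 in I/R, with 10.4 in SBP. In SBP over I/R, 0 of 45 were at least 2-fold higher and 10 lower, with a median of -0.38, and the lower genes included Thbs1 (-1.78), Mmp8 (-1.41), Adam12 (-1.41) and Mmp9 (-1.33). In Ankrd1-high over other spots, 11 of 39 were at least 2-fold higher in sham, 1 of 41 in I/R and 4 of 39 in SBP. Over all genes the shares were the 8.38%, 4.53% and, by Ankrd1, 8.96%, 2.13% and 2.94% given above.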

How the data were processed

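Sections of 10 µm from 1 sham, 1 I/R and 1 SBP heart were analysed, and the single-nucleus libraries were not analysed here. The authors deposited raw UMI counts per gene and spot, restricted to spots over tissue and not normalized, made with Space Ranger 1.3.0 per the file headers on the mouse genome. The methods name another version and a human reference. The count files list 32285 mouse genes, of which 32158 identifiers were found in GENCODE M21. Groups were taken from the labels.

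Spots with fewer than 200 genes were left out (1 to 3 per section). UMIs were summed and divided by all UMIs of the same spots. Intervals (95%) of levels were exact Poisson, those of shares Clopper-Pearson, and those of ratios exact conditional binomial. The ratios were tested on simulated Poisson counts, the model that the intervals assume, so spread beyond counting error was not part of that test. A gene was counted past 2-fold where the groups together had at least 50 UMIs. No p-value is given, as each condition has 1 section. No doublet caller was run, and no clusters were made. The scripts ran in Python 3.11.15 with pandas 2.3.3, numpy 2.4.6, matplotlib 3.10.9 and scipy 1.17.1.

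The members, the lists and the tests were chosen with earlier results of these data known. Named genes were the 9 members, the network genes past 2-fold with the 5 largest differences in each direction, and the 5 genes most correlated with Timp1, Timp3 and Timp4 in I/R. Some genes that this rule names are not reported here. T cell and B cell markers summed to under 1.4 CPM in each section, and red blood cell markers to 2878, 4094 and 3848 CPM in sham, I/R and SBP. The endothelial markers summed to 786, 766 and 727 CPM, and those of smooth muscle and pericytes to 357, 290 and 306. Alternatives changed the scaling, the filters, the fold, the minimum count and the definition of the Ankrd1-high spots.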

Additional observations from a re-analysis of the deposited data

How the results depend on the processing

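Each condition was 1 section, and depth limits the rarest members: Adamts4 rests on 6 to 71 UMIs and Mmp14 on 64 to 180, while Timp1 rests on 1714 to 9944. No paired analysis was possible because no condition has a second section. Over all alternatives, 31 of 446 log2 ratios of single members had another sign than the reported value, namely 5 of the 318 whose reported interval excluded 0 and 26 of the 128 whose reported interval included it. Of the alternatives, 2 were chosen after seeing the data, namely equal shares of Ankrd1-high spots and leaving out spots high for the injury list. The causes of the shifts were not tested.

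The 5 values with the other sign where the reported interval excluded 0 were Mmp14 in Ankrd1-high spots of sham (-0.057 at the 99th percentile of sham), Mmp2 in SBP (0.15 at an Otsu threshold, 0.31 by the injury list), and Timp3 by the injury list in I/R (0.21) and sham (0.49). The other 26 belong to 10 ratios, among them Mmp3 in I/R over sham (-0.087 with TMM, -0.081 at equal shares of Ankrd1-high spots), Mmp14 in Ankrd1-high spots of I/R (-0.25 with equal weight per spot) and, by the injury list, Adamts1 in sham (1.51) and Adamts4 in I/R (3.19).

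For Timp1, I/R over sham was 2.15 without mitochondrial UMIs, 2.04 with TMM, 2.05 with median-of-ratios factors, 2.78 with equal weight per spot, 2.46 without the 1% of spots highest for the gene and 2.02 at equal shares of Ankrd1-high spots. In the same order without the first, SBP over I/R was -0.65, -0.67, -1.05, -0.89 and -0.63. SBP over sham was 1.38 with median-of-ratios factors, 1.73 with equal weight, 1.57 without the highest 1% and 1.23 at equal shares. The Timp1 ratio of Ankrd1-high over other spots at the 90th percentile, the 99th percentile, an Otsu threshold and by the injury list was 2.86, 1.93, 2.90 and 3.45 in sham, 1.44, 0.74, 2.20 and 3.05 in I/R, and 1.85, 1.37, 2.72 and 2.58 in SBP. In I/R and SBP it was 1.11 and 1.88 with a threshold on thinned spots, 0.66 and 1.36 with equal weight per spot, and 2.31 and 2.25 without spots high for the injury list. Without mitochondrial UMIs the I/R value was 0.87.

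The Timp1 share of Timp UMIs in sham, I/R and SBP was 21.1%, 56.0% and 39.5% as a mean over spots, 26.0%, 72.4% and 50.6% without the 1% of spots highest for Timp1, 23.9%, 68.3% and 45.7% in other spots, 47.9%, 84.6% and 75.7% over Timp1 and Timp2, and 50.8%, 87.6% and 69.5% over Timp1 and Timp3. The sections kept their order in each.

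The 2 members past 2-fold in I/R over sham became 4 with equal weight per spot or at 1.5-fold, and 1 without the highest 1% of spots or with at least 200 UMIs. The 2 in SBP over I/R became 3 with equal weight per spot, 5 at 1.5-fold, and 1 without mitochondrial UMIs, with TMM or median-of-ratios factors, without the highest 1% or with at least 200 UMIs. Without the highest 1% of spots Adamts4 has no sham UMI left and gives no ratio. In Ankrd1-high spots of I/R the 2 members became 1 at the 99th percentile, without mitochondrial UMIs or with equal weight, 4 at 1.5-fold, 5 at an Otsu threshold and 6 by the injury list. In SBP the 1 became 2 on thinned spots, without mitochondrial UMIs or without spots high for the injury list, 3 at the 90th, 99th or Otsu threshold, and 4 by the injury list or at 1.5-fold. Over all genes in I/R over sham, 8.90% were past 2-fold in either direction, 14.0% with equal weight per spot and 6.75% with TMM factors. At 1.5-fold it was 26.7%. In SBP over I/R the shares were 4.87%, 6.86% with equal weight and 15.8% at 1.5-fold. For Ankrd1-high spots of I/R they were 3.37%, 17.5% at 1.5-fold, 15.8% at the Otsu threshold and 46.0% by the injury list. For those of SBP they were 4.59%, 8.17% at the 99th percentile, 11.5% at Otsu, 26.2% by the injury list and 21.6% at 1.5-fold.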
